A study of Homo sapiens with 2 samples.

Results

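The peaks described here lay within 3 kb of the start of a copy of 1 of 5 small RNA families that are transcribed by RNA polymerase III (Pol III), in a map of JARID2 across the genome of the human triple-negative breast cancer line MDA-MB-231. They were chosen by name and position alone: the nearest gene was a copy of U6, Y RNA, 7SL, 5S rRNA or 7SK, and the deposited distance to its transcription start site (TSS) was at most 3000 bp. The rule kept 447 of 67071 listed peaks (0.667%), at 417 annotated copies. They comprised 168 peaks near U6 copies, 94 near Y RNA copies, 91 near 7SL copies, 60 near 5S rRNA copies and 34 near 7SK copies. A further 3235 peaks carried names of the same families but lay beyond 3 kb, so 12.1% of the peaks so named were within reach.

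The series has 1 library precipitated with a polyclonal JARID2 antibody and 1 input library without an antibody, both from untreated MDA-MB-231 cells. Only the authors' peak list for the ChIP was analysed, and the input library was not analysed here. With 1 ChIP library there was no replicate, so no difference below was tested across samples. Counts, medians and exact intervals are given as a description and do not replace a test. The intervals for shares and medians treat peaks of this library as independent units and hold no variation between libraries. Tags (reads counted in a peak), fold enrichment over the peak caller's background and false discovery rate (FDR) are the authors' values for each peak, on the hg19 build.

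JARID2 works with the Polycomb repressive complex PRC2 as a DNA-binding cofactor. PRC2 methylates histone H3 at lysine 27. Pol III makes short untranslated RNAs. U6 serves in the spliceosome, 7SL is the RNA of the signal recognition particle, 5S rRNA belongs to the large ribosomal subunit, 7SK holds the elongation factor P-TEFb inactive, and Y RNAs bind the Ro60 protein. A few parent genes of each family are transcribed, while most annotated copies are pseudogenes that spread through the genome by retrotransposition. U6, 7SK and Y RNA genes have their promoters upstream of the start, 5S genes have theirs inside the gene, and 7SL genes use both kinds of element.

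Peaks near Pol III small RNA copies were mostly as weak as the whole list, and their share of strong peaks was also similar. Their fold enrichment ran from 2.91 to 15.36 with a median of 5.85, against a median of 5.95 over all listed peaks and 5.92 over the other 13317 peaks within 3 kb of a TSS. Their median of 12 tags equalled that of all listed peaks and was below the 14 tags of the other peaks within 3 kb of a TSS. Peak width had a median of 502 bp near the copies, against 554 bp for the other peaks near a TSS. The highest tag count was 78, whereas the other peaks near a TSS reached 779 tags. No peak near a copy was 1500 bp wide or more (0 of 447), where 245 of 13317 other peaks near a TSS (1.84%) were. Over all listed peaks the share was 0.625%. The count of 0 allows up to 0.671% by the limit of 3 counts of the total and up to 0.822% by the exact interval. A lack of broad peaks particular to the copies was therefore not shown.

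Of the 447 peaks, 8 had an FDR of at most 5%, which is 1.79% (95% exact Clopper-Pearson interval 0.776 to 3.50). Over all 67071 listed peaks 1.24% reached this limit, which lies inside that interval. Among the other peaks within 3 kb of a TSS it was reached by 582 of 13317, or 4.37% (4.03 to 4.73), which lies above it. A fold enrichment of at least 10 was found at 6 of the 447 peaks (1.34%, 0.494 to 2.9), against 1.04% of all listed peaks. Looser limits gave 9 peaks at an FDR of at most 10% (2.01%, against 1.96% of the list) and 34 at a fold enrichment of at least 8 (7.61%, 5.32 to 10.5, against 5.64% of the list). The authors' score, read as 10 times the negative log10 p, was at least 50 for 68 peaks (15.2%, 12 to 18.9), against 12.9% of the list. For 298 of the peaks near Pol III copies (66.7%) the FDR exceeded 40%, against 62.3% of the other peaks near a TSS and 70.3% of the list.

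**Figure D1:**
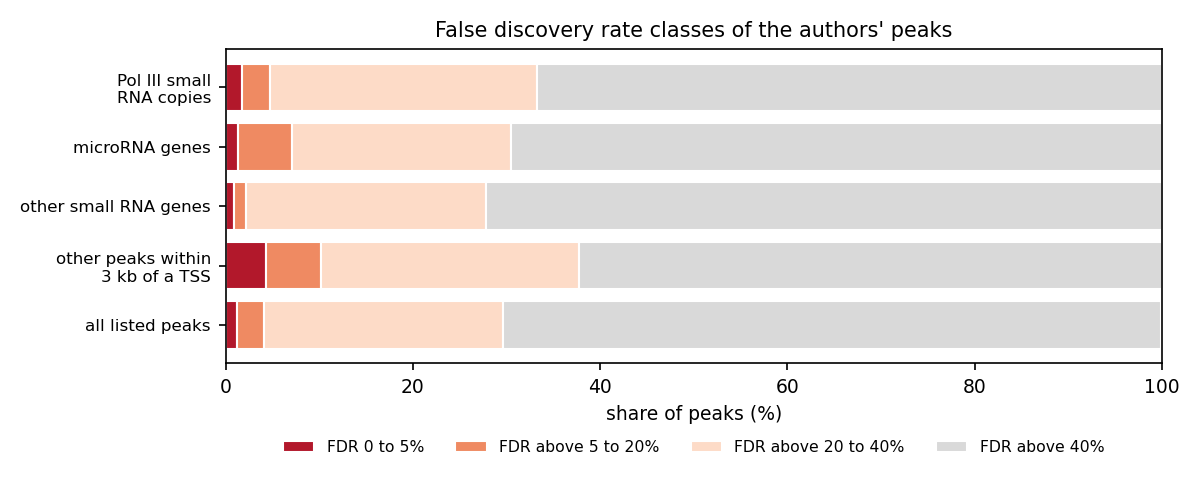
Share of peaks (x axis, %) in each class of the authors' FDR, for peaks near Pol III small RNA copies, 2 other small RNA sets, other peaks within 3 kb of a TSS, and all listed peaks. The class of at most 5% took 1.79% of the peaks near Pol III copies, 4.37% of other peaks near a TSS and 1.24% of the list.

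Peaks near other small RNA genes had similar values. The 154 peaks within 3 kb of a microRNA gene had a median fold enrichment of 5.81 and 14 tags, and 2 of them (1.30%) had an FDR of at most 5%. The other small RNA set was drawn by the symbols of small nucleolar RNA, other spliceosomal RNA and vault RNA genes. Its 230 peaks had medians of 5.82 and 13 tags, and 2 (0.870%) had such an FDR. The interval for the peaks near Pol III copies covered both shares.

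The 5 families had close medians. Median fold enrichment was 6.06 for 5S rRNA copies, 5.94 for U6, 5.82 for 7SL, 5.79 for Y RNA and 5.73 for 7SK, and the interquartile ranges overlapped. The count at an FDR of at most 5% was 3 of 168 for U6, 2 of 91 for 7SL, 2 of 60 for 5S rRNA, 1 of 94 for Y RNA and 0 of 34 for 7SK. The count of 0 of 34 allows a share of up to 8.82% by the limit of 3 counts of the total and up to 10.3% by the exact interval, so strong peaks at 7SK copies were not detected at this number and not shown to be absent. Some values of fold enrichment were shared by many peaks: 5.3 was given to 52 of the 447 peaks and the next most frequent values to 47 and 27. Ranks among weak peaks therefore hold many ties. Within each family the length of the annotated copy had little rank correlation with fold enrichment across peaks. Spearman's rho ranged from -0.221 over 94 Y RNA peaks to 0.162 over 34 7SK peaks, as a description of 1 library.

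**Figure D2:**
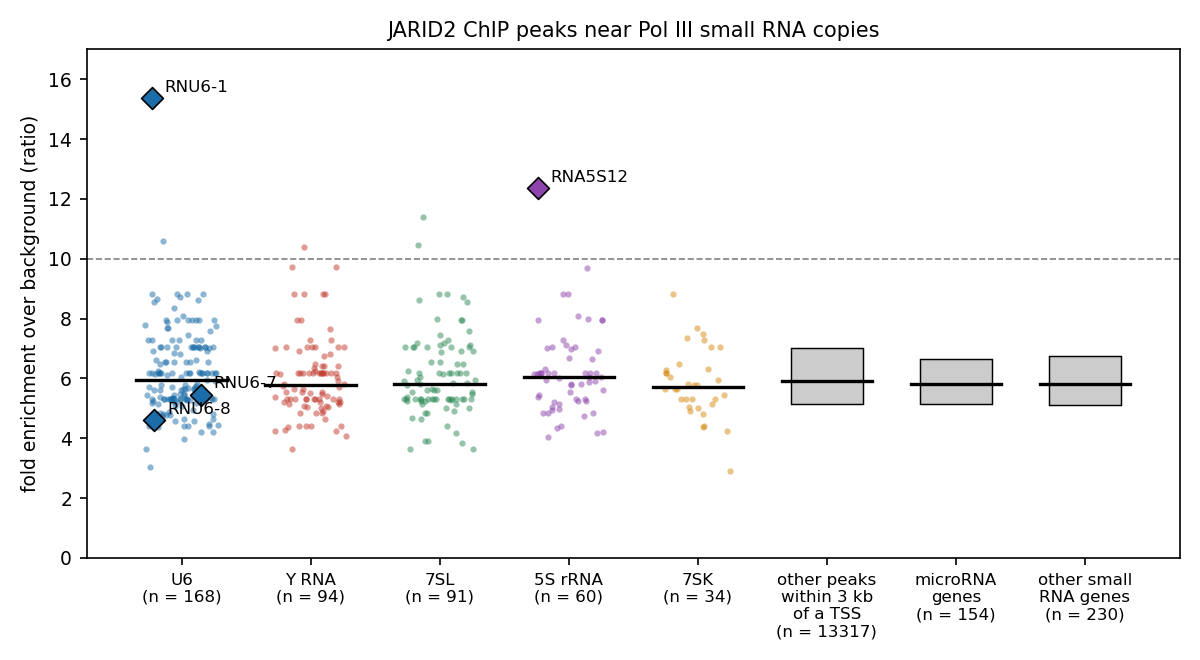
Fold enrichment (y axis, linear ratio) of each peak near a Pol III small RNA copy by family, with a black bar at the median, diamonds for the named parent genes and a dashed line at 10. Grey boxes give the middle 50% and median of the reference sets. RNU6-1 at 15.36 and RNA5S12 at 12.36 lay above every pseudogene copy, while RNU6-7 and RNU6-8 lay below the U6 median of 5.94.

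The highest fold enrichments were at a pair of parent genes, RNU6-1 and RNA5S12. Of 26 parent genes looked for, namely 5 U6 genes, 3 7SL genes, 17 5S rRNA genes and the 7SK gene, 4 were given a peak within 3 kb. The RNU6-1 peak (chromosome 15, 68132394 to 68132830) had 25 tags (95% Poisson interval 16.18 to 36.9), a fold enrichment of 15.36 and an FDR of 0.360%. It ranked first of the 447 and 139th of the whole list. RNU6-1 is a U6 gene on the minus strand (68132277 to 68132383), and the peak began 11 bp upstream of its start, with the summit 154 bp upstream. The summit lay on the side where U6 genes carry their promoter elements. Peaks wholly upstream of the start made up 75 of 168 U6 peaks (44.6%), apart from 11 that overlapped a start. Whether the RNU6-1 peak marks binding at the promoter was not tested. The gene lies between the coding genes SKOR1 and PIAS1 in the RefSeq order of GRCh38.p14. Another start in the list, that of RP11-34F13.2, was 1177 bp from the peak.

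The RNA5S12 peak (chromosome 1, 228771038 to 228771293) came second. RNA5S12 is 1 of the tandem 5S rRNA genes. The peak had 14 tags (7.65 to 23.5), a fold enrichment of 12.36 and an FDR of 2.68%, and ranked 242nd of the list. At 256 bp it was the narrowest of the 447. Its near edge was 302 bp upstream of the gene's start and its summit 429 bp upstream, so it did not cover the gene itself. No peak within 3 kb was assigned to the other 16 parent 5S genes. The list gives each peak to its nearest gene alone, so whether a peak given to another gene lies within 3 kb of them was not examined. The 5S genes are nearly identical to each other, so the assignment of reads to this copy is uncertain.

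The 2 remaining parent genes with a peak were weak. RNU6-7 had a peak over its start (chromosome 14, 32670265 to 32671489) with 38 tags (26.9 to 52.2), a fold enrichment of 5.46 and an FDR of 45.8%. RNU6-8, its neighbour on the opposite strand, had 22 tags (13.8 to 33.3), 4.61 and an FDR of 47.0% at a peak 216 bp upstream (32672691 to 32673546). Both values lay below the U6 median of 5.94. No listed peak was given to RNU6-2, RN7SL1 or RN7SL3. The peaks named for RNU6-9, RN7SL2 and RN7SK all lay beyond 3 kb, and the nearest of these, at RNU6-9, was in a 3′ UTR with 10 tags and a fold enrichment of 4.97. The 4 parent gene peaks thus spanned 4.61 to 15.36 with a median of 8.91, and the 443 other peaks 2.91 to 11.39 with a median of 5.85. Among the parent genes 2 of 4 peaks reached a fold of 10, against 4 of 443 elsewhere. With 4 peaks this is a description only.

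Of the 8 peaks at an FDR of at most 5%, 6 lay at copies other than the parent genes. RN7SL353P, a 7SL pseudogene between IER3 and DDR1 in the RefSeq order, had the most tags (chromosome 6, 30719482 to 30720806). Its 78 tags (61.7 to 97.3), fold enrichment of 11.39 and FDR of 0 belonged to a peak of 1325 bp, the widest of the 447. That peak began 667 bp downstream of the start and beyond the end of the copy at 30719062. RN7SL30P, in the MAPKAP1 gene, had 54 tags (40.6 to 70.5), 10.46 and an FDR of 0.360% (chromosome 9, 128275709 to 128276830), with the summit 996 bp upstream. RNU6-502P, between BTN1A1 and HMGN4, had 30 tags (20.2 to 42.8), 7.80 and an FDR of 0.5% (chromosome 6, 26520573 to 26521076), with the summit 1212 bp upstream. In each of these 3 cases the peak stood beside the copy and not over it.

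A Y RNA copy on chromosome 1 (ENSG00000207302) had the strongest peak of its family (26201797 to 26202624). It had 38 tags (26.9 to 52.2), a fold enrichment of 10.39 and an FDR of 1.10%, and its summit lay 1738 bp upstream of the copy. The next listed start, that of PAQR7, was 4053 bp away. RNA5SP38, a 5S pseudogene between DAOA and EFNB2, had 29 tags (19.4 to 41.6), 9.70 and an FDR of 4.31% (chromosome 13, 106808209 to 106809144). RNU6-847P, between PARD3 and CUL2, had 29 tags (19.4 to 41.6), 7.95 and an FDR of 4.4% at the edge of the reach (chromosome 10, 35211710 to 35212753), 2950 bp from the start. None of the 8 peaks at an FDR of at most 5% overlapped a start, where 8.28% of the 447 did. Of the 8, 7 lay upstream, where 47.0% of the 447 did. With 8 peaks this is a description only.

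High fold enrichment did not always come with a low FDR, and some such peaks held few tags. RNU6-428P had a fold enrichment of 10.6 from 12 tags (6.20 to 21.0), with an FDR of 23.8% (chromosome 3, 146291072 to 146291383). Y RNA copies on chromosomes 2 (129105861 to 129106495) and 7 (129599064 to 129599451) had 9.71 from 14 and 12 tags, with FDRs of 40.6% and 33.3%. A value of 8.83 was shared by 13 peaks. It led the 7SK family at RN7SKP237, a copy in the MGST2 gene, with 14 tags and an FDR of 39.0%, and recurred at RNU6-720P, RNU6-572P, RN7SL215P, RN7SL289P, RNA5SP36, RNA5SP280 and a Y RNA copy on chromosome 21. The 7SK peak with the lowest FDR was that at RN7SKP206, with 7.70, 24 tags and 15.4%, followed in fold by RN7SKP33 (7.5) and RN7SKP17 (7.35). Across the 447 peaks tags followed width (Spearman's rho 0.866) and had almost no rank correlation with fold enrichment (0.0225). Over the whole list these were 0.875 and -0.0551.

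Summits were spread evenly around the starts of Pol III copies. Of the 304 summits within 2000 bp of a start, each bin of 500 bp held between 35 and 41, or 11.5% to 13.5%. The 500 bp just upstream held 41 (13.5%, 95% exact interval 9.86 to 17.8) and the 500 bp just downstream 37 (12.2%, 8.72 to 16.4). For the other peaks near a TSS the same bins held 21.7% (20.9 to 22.5) and 23% (22.2 to 23.8) of 10480 summits, and 7.84% lay in the outermost upstream bin. For other small RNA genes they held 22.1% (15.8 to 29.5) and 19.5% (13.5 to 26.6) of 154 summits. Around microRNA genes they held 15.5% each (9.27 to 23.6) of 110 summits, with intervals that overlapped those of the Pol III copies. The bins around Pol III copies were thus nearly equal, and those around the other starts as a whole were highest next to the start. These differences between sets were not tested.

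**Figure D3:**
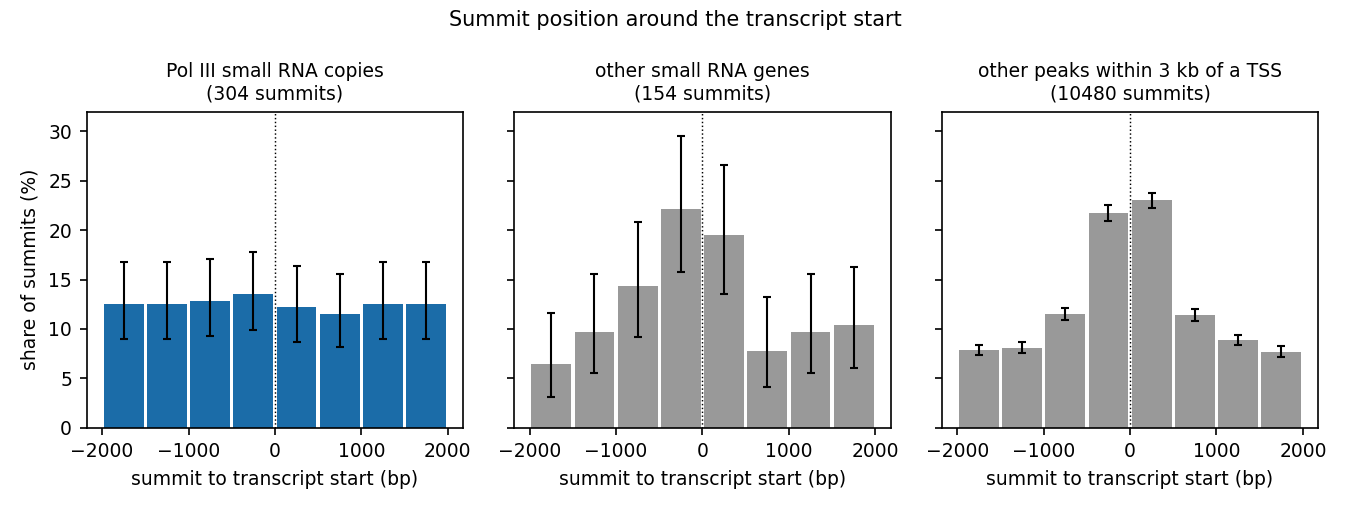
Position of peak summits relative to the transcript start (x axis, bp, negative is upstream) as a share of summits within 2000 bp (y axis, %), in bins of 500 bp with 95% exact intervals. Bins around Pol III small RNA copies held 11.5% to 13.5% each, while the bin just downstream of the other starts held 23%.

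A smaller share of peaks overlapped the start near Pol III copies than among all other peaks within 3 kb of a TSS, while the intervals of the 2 other small RNA sets overlapped that of the Pol III copies. An overlap was found for 37 of 447 peaks, or 8.28% (5.89 to 11.2). It was found for 3631 of 13317 other peaks within 3 kb of a TSS, or 27.3% (26.5 to 28), for 24 of 154 near microRNA genes, or 15.6% (10.2 to 22.3), and for 32 of 230 near other small RNA genes, or 13.9% (9.72 to 19.1). The rest of the 447 were split about equally, with 210 upstream (47.0%) and 200 downstream (44.7%). Any part of the annotated copy was touched by 49 peaks (11%).

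No peak over the start of a Pol III copy reached an FDR of at most 5%. The count was 0 of 37, which allows a share of up to 8.11% by the limit of 3 counts of the total and up to 9.49% by the exact interval, against 453 of 3631 (12.5%, 11.4 to 13.6) of the other peaks over a start. Their medians were 16 tags and a fold enrichment of 6.06, against 21 tags and 5.99. At a deposited distance of 1 to 1000 bp, 3 of 116 peaks near Pol III copies (2.59%, 0.537 to 7.37) and 71 of 3381 other peaks (2.10%, 1.64 to 2.64) reached the limit. At over 1 kb and up to 2 kb the counts were 4 of 154 (2.60%, 0.712 to 6.52) and 40 of 3499 (1.14%, 0.818 to 1.55). Away from the start the intervals of the shares overlapped. The largest fold enrichments over a start were those of a Y RNA copy on chromosome 22 (41441020 to 41441700) and of RNU6-720P in RNF13. Both were at 8.83, with FDRs of 24.9% and 35.4%. Some peaks over a start had a lower FDR at a lower fold, such as RNA5SP283 with 62 tags, 5.60 and 13.2%.

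The share of peaks that covered the start ran from 1.1% for 7SL copies to 16.7% for 5S rRNA copies. A 5S rRNA copy had its start covered in 10 of 60 cases (16.7%, 8.29 to 28.5), 7SK in 4 of 34 (11.8%, 3.3 to 27.5), Y RNA in 11 of 94 (11.7%, 5.99 to 20) and U6 in 11 of 168 (6.55%, 3.31 to 11.4). For 7SL it was 1 of 91 (1.10%, 0.0278 to 5.97). The 7SL interval lay below that of 5S rRNA and barely below that of Y RNA, and overlapped those of U6 and 7SK. The 1 peak over a 7SL start, at RN7SL700P (chromosome 13, 48033190 to 48033589), had 9 tags, the minimum of the list, and an FDR of 48.2%. Summits within 500 bp of a start followed the same order at its ends, with 8 of 91 for 7SL (8.79%, 3.87 to 16.6) and 15 of 60 for 5S rRNA (25%, 14.7 to 37.9), although these intervals overlapped. Peaks touched the annotated 7SL copy, which is longer than a U6, Y or 5S copy, in 6 of 91 cases (6.59%, 2.46 to 13.8). How reads that match several copies were treated is not known. Its effect on the number of peaks over copies of any family was not tested.

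**Figure D4:**
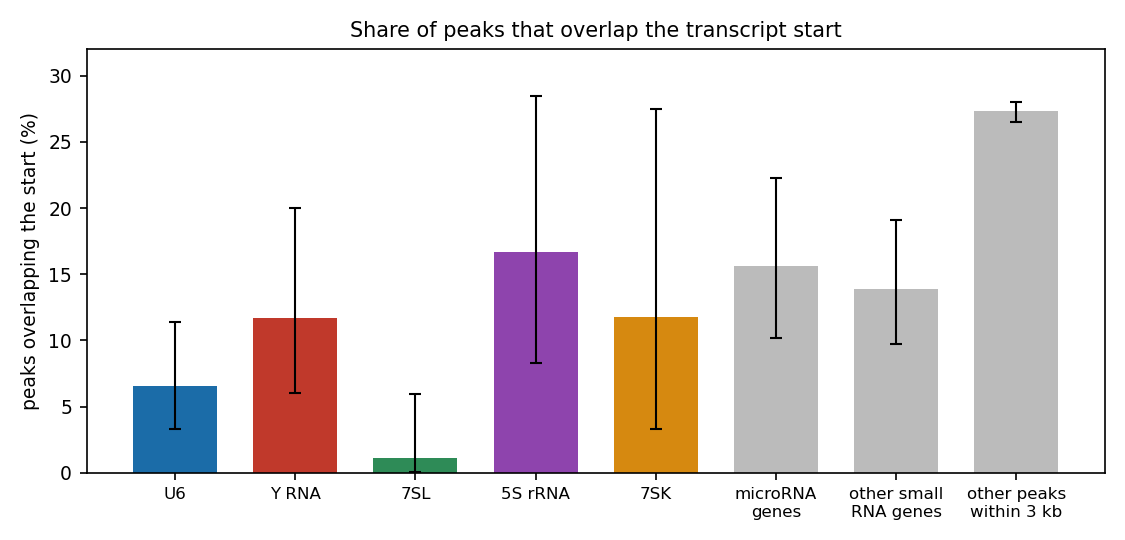
Share of peaks that overlap the transcript start (y axis, %) for the 5 Pol III families (coloured) and 3 reference sets (grey), with 95% exact intervals. Peaks near 7SL copies overlapped a start in 1.10% of cases, 5S rRNA copies in 16.7% and other peaks within 3 kb of a TSS in 27.3%.

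Similar shares of the copies in each family had a nearby peak. In the RefSeq table of GRCh38.p14, 152 of 1282 U6 genes and pseudogenes (11.9%, 10.1 to 13.8) had a peak within 3 kb by name. The counts were 32 of 294 for 7SK (10.9%, 7.56 to 15.0), 55 of 527 for 5S rRNA (10.4%, 7.96 to 13.4) and 66 of 687 for 7SL (9.61%, 7.51 to 12.1). These 4 intervals overlapped. All Y RNA copies chosen here carry the 1 name Y_RNA in the list, so they could not be counted this way. Of 305 copies with a peak that matched a RefSeq symbol, 140 (45.9%, 40.2 to 51.7) lay inside a protein-coding gene, as did 1319 of all 2790 RefSeq copies of these families (47.3%). Only 17 of the 447 peaks (3.80%) had another start from the list within 3 kb, and 1 of the 8 at an FDR of at most 5%, that of RNU6-1, was among them. That count is partial, since the list gives starts only for genes that were nearest to some peak.

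More than 1 peak was found at 29 copies, with 59 peaks in all. They were 9 U6, 9 Y RNA, 7 7SL, 2 5S rRNA and 2 7SK copies, and 15 had a peak on each side of the start. RN7SL215P, next to HES1 in the RefSeq order, was the 1 copy with 3 peaks, at 3.83, 7.20 and 8.83. Fold enrichment at the 29 copies ran from 3.83 to 8.83. None of their 59 peaks had an FDR of at most 5% (lowest 10.7%, at RNA5SP200), against 1.79% of the 447 and 1.24% of the list. At these shares 59 peaks are too few to show that such peaks are absent. Chromosome 1 held the most of the 447 peaks with 51 (11.4%, against 9.43% of all peaks), and Y held 0, where the list had 8 peaks. Peaks on plus-strand copies numbered 261 and on minus-strand copies 186. The deposited distance runs to the far edge of the peak for all 30777 minus-strand peaks off a start and to the near edge for plus-strand ones. Counted by the near edge, 223 minus-strand peaks lay within 3 kb. At the boundary of the rule, the 12 peaks at 2901 to 3000 bp had a median fold enrichment of 5.55, and the 15 at 3001 to 3100 bp had 5.82.

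Genes of the Pol III machinery and of proteins that bind these RNAs were examined beside the copies. Of 56 such genes, 24 had a peak within 3 kb of a TSS (42.9%, 29.7 to 56.8), against 6639 of 20037 protein-coding genes (33.1%), a share inside that interval. An FDR of at most 5% was reached at 2 of the 56 genes (3.57%), against 2.47% of all protein-coding genes. Some genes carry another symbol in the peak list than in RefSeq, such as C8orf46 at the locus of VXN. If the background was matched by symbol, as the copies were, such genes would count as having no peak. Both background shares may therefore be too low, and the comparison with the 56 genes was not corrected for this. POLR3G, which encodes a Pol III subunit abundant in pluripotent and tumour cells, had the strongest peak (chromosome 5, 89769440 to 89770320). It had 51 tags (38.0 to 67.1), a fold enrichment of 16.98 and an FDR of 0, ranked 107th of the list, and had its summit 27 bp upstream of the start. This is a higher fold than at RNU6-1. POLR3B, which encodes the second-largest Pol III subunit, had 65 tags (50.2 to 82.9) and an FDR of 3.6% with a fold enrichment of 5.2 (chromosome 12, 106751285 to 106752757).

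No other machinery gene had a promoter peak at an FDR of at most 5%, although several had a higher fold enrichment than POLR3B. By subunit group, 6 of 13 Pol III subunit genes, 5 of 6 TFIIIC genes, 3 of 5 SNAPc genes and 1 of 4 TFIIIB genes had a promoter peak. TFIIIC binds the internal promoters of Pol III genes, and SNAPc binds the upstream element of U6 and 7SK genes. GTF3A, which encodes TFIIIA, the factor specific to 5S genes, had 3 promoter peaks, the highest at 9.71 with an FDR of 13.4%. GTF3C6, a TFIIIC subunit gene, followed with 9.70 (19.4%) and POLR3D with 7.95 (38.7%). Among genes for RNA partners, 1 of 4 for 7SK (MEPCE), 2 of 2 for La and Ro60 (SSB and TROVE2), 2 of 6 for the signal recognition particle (SRP54 and SRP68), 1 of 10 for U6 (LSM4) and 0 of 2 for 5S rRNA had a promoter peak. The lowest FDR among these was 32.5%, at MEPCE. Taking the strongest promoter peak of each gene, the 24 genes had a median fold enrichment of 6.06.

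**Figure D5:**
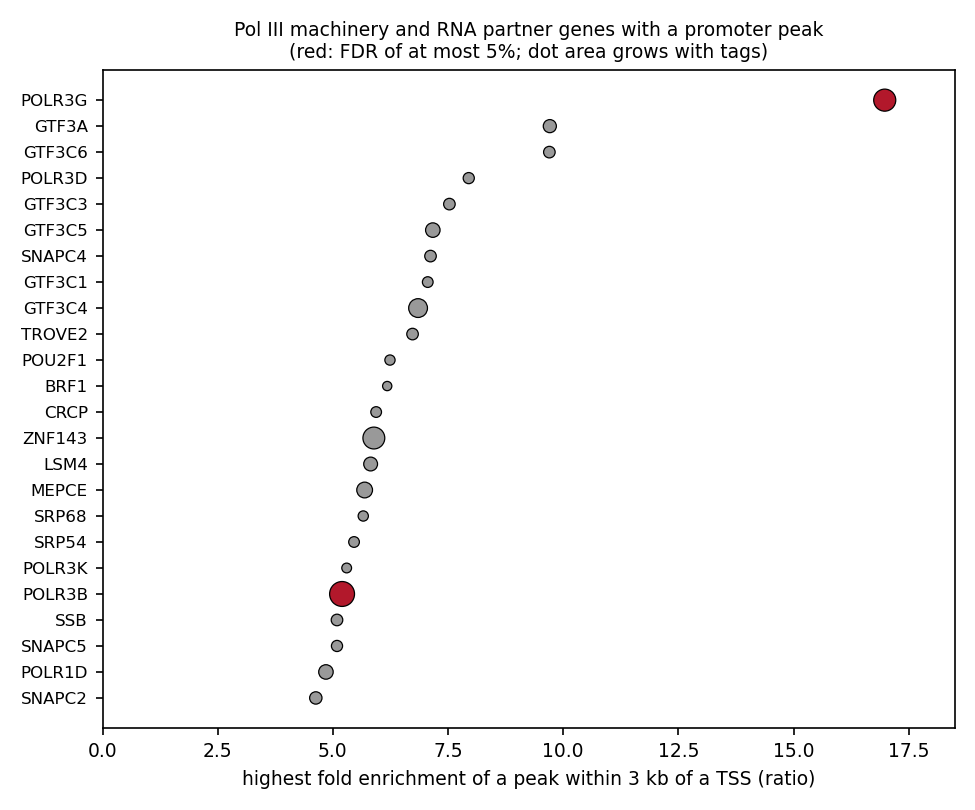
Highest fold enrichment (x axis, linear ratio) of a peak within 3 kb of a TSS for each of the 24 Pol III machinery and RNA partner genes that had one. Dot area grows with tags, and red marks an FDR of at most 5%, reached by POLR3G at 16.98 and POLR3B at 5.2.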

How the data were processed

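JARID2 ChIP-seq and input DNA were sequenced from MDA-MB-231 cells, and the ChIP peak list was analysed. The submitters' processing notes name hg19 as the build and list ChIPseeker, MACS2, MACS, Bowtie 0.12.8 and bcl2fastq. No source used here gives their settings, the use of the input or the treatment of reads that match several copies. Per the file headers, the deposited values are an unnormalised whole tag count for each peak, fold enrichment as a ratio and FDR in percent. The deposited score had an unreadable header and was taken as 10 times the negative log10 p, since its minimum was 30.

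The depth of the libraries is unknown. The list held 1000395 tags, with a median of 12 per peak. A single peak of 12 tags has a 95% Poisson interval of 6.20 to 20.96. Poisson intervals were given for tags and exact Clopper-Pearson intervals for shares of peaks. They cover counting error only, since PCR copies are not independent molecules.

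Members were found by symbol and deposited distance. Near edges and summit positions were recomputed by strand. Of 330 symbols, 305 matched the RefSeq table of GRCh38.p14, and copies were linked to it by symbol. That table gave the neighbours, the number of copies per family, the copies inside coding genes and the protein-coding background. Named peaks were every peak at an FDR of at most 5%, the 4 of largest fold enrichment per family, parent genes, copies with several peaks and machinery genes. Genes and peaks named for another reason, such as those of largest fold over a start, were chosen after their values were seen. The members and lists were chosen with earlier results of these data known. The code was tested on simulated data. Python 3.11.15, pandas 2.3.3 and SciPy 1.17.1 were used.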

Additional observations from a re-analysis of the deposited data

How the results depend on the processing

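Of 66 alternatives over 8 results, 57 stayed within the interval of the value, or within 1.5 times for counts. Keeping only peaks over a start left 37 peaks and gave a median of 16 tags, a median FDR of 41.7% and a share of 0 at an FDR of at most 5% and at a fold enrichment of at least 10. A reach of 1000 bp left 153 peaks and a score of at least 50 left 68. A fold enrichment of at least 8 raised the share to 7.61%, against 5.64% of all peaks. Machinery genes with a promoter peak numbered 2 at an FDR of at most 5%. The near-edge reach on both strands, chosen after the data were examined, gave 484 peaks and a median fold enrichment of 5.90. No paired analysis was possible because the ChIP has 1 library. Weak peaks rest on few tags, which limits every rank among them.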

Other observations

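Some other Pol III genes, whose symbols the rule did not cover, were looked up after the list was seen. Only those with a listed peak are given, so no share with a promoter peak can be read from them. RNU6ATAC, the U6 counterpart of the minor spliceosome, had a peak over its start (chromosome 9, 137029620 to 137030812) with 47 tags (95% Poisson interval 34.5 to 62.5), a fold enrichment of 5.66 and an FDR of 9.72%. A second RNU6ATAC peak (137028660 to 137029536) had 28 tags (18.6 to 40.5), 9.57 and an FDR of 28.1%. RMRP, the RNA of the ribonuclease MRP, had 37 tags (26.1 to 51.0), 4.09 and an FDR of 41.3% over its start (chromosome 9, 35656849 to 35658225). RNY5, a named Y RNA gene, VTRNA1-1, a vault RNA gene, and BCYRN1 had only peaks beyond 3 kb of their starts.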
